A study of Mus musculus with 52 samples.

Results

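The genes described here make cholesterol and fatty acids, control that synthesis or carry sterol inside the cell, and 33 of them were listed by gene symbol. Of these, 32 had a row among the 14626 genes of the count table; Fdft1, which encodes squalene synthase, is not analysed here. RNA of mouse CD8+ T cells was read by bulk MARS-seq, which counts the 3′ ends of transcripts. All T cells were taken from OT-I spleens and selected with magnets as naive cells. OT-I mice carry a transgenic T cell receptor that recognises an ovalbumin peptide. Fresh cells of day 0 gave 9 libraries. Cells stimulated with microbeads that carry antibodies to CD3 and CD28, plus IL-2, were read at day 3 (5 coated and 3 uncoated samples) and at day 7 (4 coated and 5 uncoated). Cells stimulated with ovalbumin peptide on dendritic cells (DCs), which were CD11c-selected from C57BL/6 spleens, were read at day 3 (5 coated and 4 uncoated samples) and at day 4 (5 and 5). Coated wells bore CCL21, the chemokine that binds CCR7, and ICAM1, which binds the integrin LFA-1; uncoated wells bore neither. The study asked how this surface acts on proliferation and killing by cells activated in each way. DC titles also carry 30 or 120, a number that the labels do not explain, and the 9 coated and 7 uncoated DC libraries of day 3 were added up within each M number, the replicate number of the titles. Whether M numbers are separate animals is not stated, so the spread behind each p-value may be technical.

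Cholesterol is built from acetyl-CoA through mevalonate, squalene and lanosterol, and the same acetyl-CoA feeds fatty acid synthesis through malonyl-CoA. SREBP transcription factors, encoded by Srebf1 and Srebf2, switch on most genes of both routes. When membranes of the endoplasmic reticulum hold little sterol, SCAP escorts SREBP to the Golgi for cleavage, and INSIG proteins retain SCAP when sterol is plentiful. T cells that leave quiescence are known to raise this programme as they build membrane for growth and division.

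Promoters of 4 members are printed because their genes differed in the comparisons: Hmgcs1 and Cyp51 were higher on the coating in DC cultures of day 4, Fasn rose after activation without a called coating effect, and Insig1 was called against day 0 in no comparison. Each sequence runs 5′ to 3′ on the strand of its gene, from RefSeq on build GRCm38.p6, and spans the annotated start. Capitals mark CACNCCAC, a core of the sterol regulatory element to which SREBPs bind, with the T before it where the longer TCACNCCAC is present, and CCAAT, the box bound by NF-Y, on either strand. The windows are chr13:119690101-119690400 (plus strand), chr5:4104648-4104947 (minus), chr11:120824498-120824797 (minus) and chr5:28071162-28071461 (plus).
Hmgcs1: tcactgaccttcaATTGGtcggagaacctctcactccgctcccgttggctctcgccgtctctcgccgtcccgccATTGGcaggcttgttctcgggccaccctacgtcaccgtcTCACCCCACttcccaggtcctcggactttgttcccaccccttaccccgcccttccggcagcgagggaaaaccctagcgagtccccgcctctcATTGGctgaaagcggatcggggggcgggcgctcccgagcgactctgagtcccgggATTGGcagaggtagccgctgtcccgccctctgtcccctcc
Cyp51: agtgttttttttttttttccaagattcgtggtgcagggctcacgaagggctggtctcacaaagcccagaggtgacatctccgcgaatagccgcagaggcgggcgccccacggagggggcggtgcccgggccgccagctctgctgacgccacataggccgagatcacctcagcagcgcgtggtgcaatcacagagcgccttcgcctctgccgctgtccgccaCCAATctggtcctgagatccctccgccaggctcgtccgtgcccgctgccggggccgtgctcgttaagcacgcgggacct
Fasn: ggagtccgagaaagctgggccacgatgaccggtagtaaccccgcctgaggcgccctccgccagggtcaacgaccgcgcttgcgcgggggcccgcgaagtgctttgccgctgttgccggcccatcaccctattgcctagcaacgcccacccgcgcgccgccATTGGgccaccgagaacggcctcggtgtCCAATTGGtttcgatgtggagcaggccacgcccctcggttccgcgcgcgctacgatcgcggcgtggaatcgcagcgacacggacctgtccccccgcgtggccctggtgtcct
Insig1: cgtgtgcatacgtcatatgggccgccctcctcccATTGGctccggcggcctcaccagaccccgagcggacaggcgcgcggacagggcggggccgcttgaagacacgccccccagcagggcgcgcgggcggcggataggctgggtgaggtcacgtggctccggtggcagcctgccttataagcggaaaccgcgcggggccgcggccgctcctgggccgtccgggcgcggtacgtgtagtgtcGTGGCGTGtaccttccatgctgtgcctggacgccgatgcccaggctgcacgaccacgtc

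Of the 33 members, 26 had a promoter in the RefSeq table. The longer sterol element TCACNCCAC, searched on both strands, was in 1 of them, Hmgcs1, at 137 bases before the start, against 1.4% of 27025 genes. The shorter CACNCCAC, which overlaps it there, was in Hmgcs1, Acat2 and Insig1 (7.1% of all genes). CCAAT was in 21 of the 26 members (41.1% of all genes), the GC box GGGCGG in 21 (38.2%) and the E-box CACGTG in 6 (8.1%). The printed Hmgcs1 window holds CCAAT at 4 places, the Fasn window at 3, and the Cyp51 and Insig1 windows at 1 each. These are letters in a window, not measured binding. Only these patterns were searched, so a sterol element with other letters would be neither marked nor counted.

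Totals ran from 630736 to 6437647 counts per sample. Markers of CD8+ T cells (Cd8a, Cd8b1, Cd3d, Cd3e, Cd3g, Trac, Trbc2) were present in every group, with sums of 4985 to 12680 counts scaled to library size (CPM) as group means. Day 0 libraries also held transcripts of other spleen cells: the sum of 5 erythroid markers was 60580 ± 36360 CPM (mean ± SD, n = 9) there and at most 375.2 CPM as a group mean later. The sum of 8 MHC class II and DC markers was 14520 ± 2979 CPM at day 0 and at most 394.8 CPM later, with Clec9a at 0 in all bead cultures of day 3, coated bead cultures of day 7 and coated DC cultures of day 4. The 5 B cell markers summed to 4569 ± 1090 CPM at day 0, most of it Ighm. Their part in the differences from day 0 was not tested; in bulk RNA, fewer cells of a type and less RNA per cell cannot be told apart. Some genes overlap others, and strand use in counting is not given. Fdps overlaps Gm43738 on the same strand. Leaving microRNA genes aside, Acss2, Tm7sf2, Elovl6, Srebf2 and Acaca also overlap genes of their own strand. Acss2, Cyp51, Mvd, Lss, Acaca, Hmgcs1, Scap, Srebf1, Elovl6 and Idi1 overlap genes of the opposite strand. How shared reads were counted is not given, so counts of these genes may include reads of a neighbour or lack some of their own.

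Day 0 was the group with the lowest mean CPM for 24 of the 32 members. Coated bead cultures of day 3 had the highest mean for 14 members, and DC cultures of day 3 for 11 (6 uncoated, 5 coated). Acss2 and Scd1 alone had their highest mean at day 0. The summed level of the 7 mevalonate genes was 152 ± 15.9 CPM at day 0 and 953 ± 129 CPM (n = 5) in coated bead cultures of day 3. It was 724 ± 52 CPM (n = 4) in uncoated DC cultures of day 3 and 248 ± 19.1 CPM (n = 5) a day later. Genes of fatty acid synthesis summed to 223 ± 12.7 CPM at day 0, 529.7 ± 41.9 CPM in uncoated DC cultures of day 3 and 235 ± 5.59 CPM at DC day 4, so the last group lay near day 0.

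**Figure D1:**
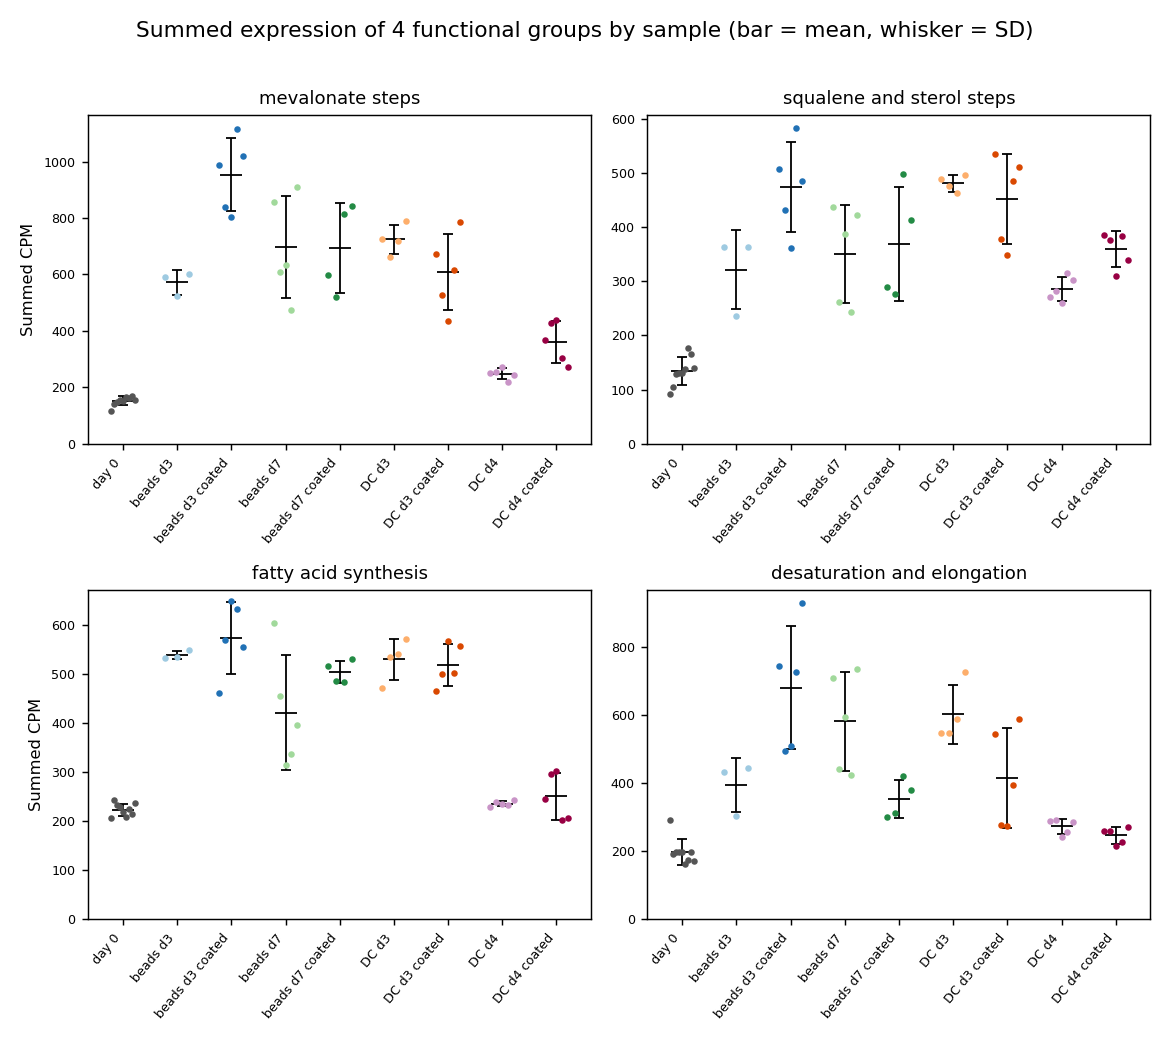
Summed CPM of the mevalonate, squalene and sterol, fatty acid synthesis, and desaturation and elongation genes in each sample of the 9 groups, with group mean and SD. All 4 sums had their lowest group mean at day 0, and were high at day 3 and lower at DC day 4 than at DC day 3.

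Each activated group without coating was compared with day 0 to ask which members changed with activation; these 4 comparisons share the 9 day 0 samples. A gene was called at an adjusted p under 0.05 in edgeR's quasi-likelihood test. At bead day 3, 20 of the 28 members tested rose and 2 fell, where 30.2% of all genes tested rose and 35.0% fell. At bead day 7, 21 of 29 rose and 2 fell (all genes 30.5% and 31.0%). At DC day 3, 24 of 30 rose and 3 fell (37.0% and 38.1%). At DC day 4, 18 of 28 rose and 3 fell (26.4% and 29.2%). The median log2 fold change of the members tested was 1.29, 1.29, 1.80 and 0.70 in that order, while that of all genes tested was -0.12, -0.02, -0.04 and -0.03. Members not tested had too few counts: Idi1, which isomerises isopentenyl diphosphate, never passed the filter, and Lss, Nsdhl, Hsd17b7, Scd1 and Fads2 failed it in some comparisons.

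Mevalonate genes rose together: 6 of 6 tested at bead day 3, bead day 7 and DC day 3, and 5 of 6 at DC day 4. Hmgcs1, the synthase of HMG-CoA, was at 32.4 (lowest), 45.1 (median) and 60.1 (highest) CPM at day 0. It was at 175, 177 and 160 CPM at bead day 3, 288, 203, 209, 124 and 262 at bead day 7, 303, 271, 288 and 333 at DC day 3 and 77.7, 74, 76.7, 72.8 and 70.9 at DC day 4. Every activated sample lay above the highest of day 0. Hmgcs1 rose by 1.89 ± 0.15 (SE, adjusted p = 1.37e-08), 2.27 ± 0.17 (SE, adjusted p = 3.1e-09), 2.73 ± 0.13 (SE, adjusted p = 2.31e-12) and 0.71 ± 0.13 (SE, adjusted p = 0.000144) on the log2 scale, in that order. Acat2, which joins acetyl-CoA units at the start of the route, was at 1.73 (lowest), 9.42 (median) and 11.5 (highest) CPM at day 0, 57, 54.2 and 57.2 at bead day 3 and 59.1, 60.6, 79.4 and 78.1 at DC day 3. No activated sample of those days was within the range of day 0, and Acat2 rose by 2.71 ± 0.26 (SE, adjusted p = 1.59e-07) and 3.06 ± 0.22 (SE, adjusted p = 1.01e-09). Mvk, Pmvk, Mvd and Fdps, which carry mevalonate on to farnesyl diphosphate, had log2 changes of 1.05, 1.53, 1.00 and 2.37 at bead day 3, all called.

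Sterol genes past squalene rose in 5 of 7, 6 of 8, 9 of 9 and 7 of 8 members tested, and none fell. Some of these calls ended in alternatives. At bead day 3 they were Msmo1 and Dhcr7 (adjusted p up to 0.0693 and 0.103), and at bead day 7 Tm7sf2 (0.0848). At DC day 3, Ebp and Tm7sf2 did so (0.0946 and 0.0604), and at DC day 4 Dhcr7 and Nsdhl (0.0674 and 0.2). The rise of Nsdhl, a sterol dehydrogenase, at DC day 3 (log2 change 0.99) turned to -0.10 with libraries of the title number 30 alone and to -0.19 with that number as covariate. Sqle, the epoxidase that commits squalene to sterols, was at 1.73 (lowest), 10.8 (median) and 26.3 (highest) CPM at day 0. It was at 111, 68.5 and 113 CPM at bead day 3, 124, 86.5, 75.6, 71.8 and 91 at bead day 7, 92.5, 109.5, 122 and 129.5 at DC day 3 and 30.8, 31.2, 24.2, 36.7 and 30.5 at DC day 4. The lowest DC day 4 sample lay below the highest day 0 sample, and the other activated groups did not overlap day 0. Log2 changes were 3.04 ± 0.28 (SE, adjusted p = 8.65e-08), 2.93 ± 0.26 (SE, adjusted p = 2.59e-08), 3.27 ± 0.24 (SE, adjusted p = 9.57e-10) and 1.37 ± 0.26 (SE, adjusted p = 0.000172). Ebp, a sterol isomerase late in the route, was at 21.9 (lowest), 45 (median) and 63.6 (highest) CPM at day 0 and 101, 132, 90.9, 135 and 146 CPM at DC day 4, with no overlap, a rise of 1.37 ± 0.21 (SE, adjusted p = 1.65e-05). Within day 0, Ebp was at 21.88 to 45.05 CPM in M1 to M5 and 54.76 to 63.61 CPM in M6, M7, M8 and M10. DC day 4 samples are M6 to M10. Over 11 alternatives this rise was 0.94 to 1.48, called in each. Stard4, a carrier that moves sterol between membranes, rose in all 4 comparisons, by 1.61, 1.88, 2.56 and 1.36.

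Of the 4 regulators, 1 was called in every comparison with day 0. Scap rose in all 4 comparisons, by 0.75, 0.42, 0.85 and 0.32; the last ended as a call without uncoated DC day 4 M6 (adjusted p = 0.0699), M7 (0.0994), M8 (0.0537) or M10 (0.0613), and that of bead day 7 without uncoated M1 (0.0684) or M2 (0.0714). Srebf2, which encodes SREBP-2, was at 230.4 (lowest), 330.1 (median) and 376 (highest) CPM at day 0 and had log2 changes of -0.24 (adjusted p = 0.236), -0.02 (adjusted p = 0.9), 0.11 (adjusted p = 0.481) and -0.25 (adjusted p = 0.132). Insig1 was at 13.8 (lowest), 19.8 (median) and 32.8 (highest) CPM at day 0 and changed by -0.19 (adjusted p = 0.638), -0.41 (adjusted p = 0.195), 0.44 (adjusted p = 0.0697) and -0.26 (adjusted p = 0.321). Neither was called in any of the 4 with all samples, but some alternatives called them: at bead day 3 the M number as a block gave -0.71 for Insig1 (adjusted p = 0.0422) and -0.49 for Srebf2 (adjusted p = 0.0033), and at DC day 3 Insig1 passed without the filter (adjusted p = 0.0256) and without uncoated M1 (adjusted p = 0.0408). Srebf1 was at 97.6 (lowest), 223 (median) and 277 (highest) CPM at day 0 and 120.3, 113, 138, 97.5 and 114 CPM at DC day 4, so the groups overlapped. At day 0 Srebf1 was at 276.7, 274, 222.9, 238.9 and 251.7 CPM in M1 to M5. It was at 147, 97.61, 141.1 and 103.2 CPM in M6, M7, M8 and M10. Srebf2 split likewise, at 333, 375.5, 330.1, 375.4 and 357.3 CPM against 235.4, 262.1, 258.4 and 230.4 CPM. Other members split between these samples too, among them Ebp, Scd2, Hsd17b7 and, by a narrow margin, Acss2. DC day 4 samples are M6 to M10, and the other activated samples M1 to M5. At bead day 3, Srebf1 (129.4, 132.7 and 133 CPM) and Srebf2 (256.6, 243.9 and 301.4 CPM) lay below all day 0 samples M1 to M5. Srebf1 fell by 0.77 ± 0.25 (SE, adjusted p = 0.0161) at DC day 4, a call that ended with the M number as a block (log2 change -0.01, adjusted p = 0.971), and was not called at bead day 3 (-0.60, adjusted p = 0.121), bead day 7 (-0.11, adjusted p = 0.728) or DC day 3 (-0.47, adjusted p = 0.138). With the block, Srebf1 was called lower in those 3 (-1.05, -0.52 and -0.86, adjusted p = 4.99e-06, 0.00657 and 3.89e-05), and in 1 fit over all groups at bead day 3 (adjusted p = 0.0215) and DC day 3 (adjusted p = 0.0239).

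Fatty acid synthesis genes split between 2 sources of acetyl-CoA. Acly, which cleaves citrate, rose at bead day 3, bead day 7 and DC day 3 (log2 changes 0.53, 0.38 and 0.52); the call of bead day 7 ended without uncoated M1 (adjusted p = 0.0669) or M2 (0.0807). Acss2, which makes acetyl-CoA from acetate, was at 18.8 (lowest), 32.8 (median) and 43.2 (highest) CPM at day 0, 5.13, 0 and 5.2 at bead day 3, 7.74, 5.96, 9.07, 10.8 and 11.8 at bead day 7 and 12.5, 13.9, 10.0, 19.5 and 15.8 at DC day 4. The bead samples lay below all of day 0, and 1 DC day 4 sample lay within its range. Acss2 fell by 3.05 ± 0.39 (SE, adjusted p = 3.07e-06), 1.86 ± 0.22 (SE, adjusted p = 6.35e-07), 2.30 ± 0.21 (SE, adjusted p = 1.83e-08) at DC day 3 and 1.23 ± 0.19 (SE, adjusted p = 1.98e-05). Fasn, the fatty acid synthase, was at 67.2 (lowest), 76.3 (median) and 89.7 (highest) CPM at day 0, 336, 342 and 349 at bead day 3, 276, 357, 326 and 359 at DC day 3 and 81, 82.1, 81.7, 82.5 and 76.8 at DC day 4. Fasn rose at bead day 3, bead day 7 and DC day 3, by 2.12 ± 0.11 (SE, adjusted p = 1.72e-10), 1.66 ± 0.17 (SE, adjusted p = 1.01e-07) and 2.09 ± 0.11 (SE, adjusted p = 8.38e-12), while DC day 4 was not called (0.05, adjusted p = 0.719).

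Desaturases moved in opposite directions. Scd1 and Scd2 both put a double bond into saturated fatty acids. Scd2 was at 42.3 (lowest), 63.9 (median) and 114 (highest) CPM at day 0, 236, 127 and 249 at bead day 3, 449, 226, 343, 202 and 448 at bead day 7, 332, 327, 377 and 478 at DC day 3 and 155, 171, 113, 136 and 152 at DC day 4. DC day 4 overlapped day 0, through day 0 M1 alone (113.6 CPM), and the other groups did not. The rises were 1.66 ± 0.26 (SE, adjusted p = 5.05e-05), 2.38 ± 0.24 (SE, adjusted p = 2.67e-07), 2.57 ± 0.21 (SE, adjusted p = 1e-08) and 1.17 ± 0.20 (SE, adjusted p = 5.54e-05). Within day 0, Scd2 was at 63.89 to 113.6 CPM in M1 to M5 and 42.27 to 49.3 CPM in M6, M7, M8 and M10. At DC day 4, whose samples are M6 to M10, the alternatives gave rises of 1.11 to 1.68, all called. Scd1 was at 24.6 (lowest), 49.4 (median) and 60.0 (highest) CPM at day 0, 0.57, 0 and 3.12 at bead day 3, 15.9, 9.78, 12.5 and 16.9 at DC day 3 and 1.83, 0.897, 2.5, 2.87 and 0.586 at DC day 4. All of these activated samples lay below day 0, with log2 changes of -5.17 ± 0.55 SE, adjusted p = 1.45e-07; -1.63 ± 0.23 SE, adjusted p = 4.19e-06; and -4.79 ± 0.32 SE, adjusted p = 3.87e-10. At bead day 7 Scd1 changed by -3.97 ± 0.36 SE, adjusted p = 2.89e-08.

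Fads2 and Fads1 desaturate polyunsaturated fatty acids. Fads2 had the highest rise of the members tested at bead day 3 (4.12), bead day 7 and DC day 3, and Fads1 at DC day 4. Fads2 was at 0 (lowest), 1.36 (median) and 3.46 (highest) CPM at day 0, with 69.6, 43.5, 51.4, 30.1 and 96.3 at bead day 7 and 63.2, 54.8, 58 and 76.6 at DC day 3, far apart from day 0. Its log2 changes were 5.36 ± 0.36 (SE, adjusted p = 2.79e-11) and 5.51 ± 0.28 (SE, adjusted p = 1.44e-13). Fads1 was at 4.09 (lowest), 10.6 (median) and 13.8 (highest) CPM at day 0, 69, 52.8 and 60.3 at bead day 3, 78.9, 67.4, 75, 47.1 and 84.5 at bead day 7 and 38.4, 43.5, 50.0, 42.4 and 36.3 at DC day 4. No sample of those groups came near day 0, and Fads1 rose by 2.54 ± 0.23 (SE, adjusted p = 8.36e-08), 2.81 ± 0.22 (SE, adjusted p = 3.88e-09) and 2.03 ± 0.20 (SE, adjusted p = 9.09e-08). Elovl5, an elongase of polyunsaturated fatty acids, fell at DC day 3 by 0.57 ± 0.14 (SE, adjusted p = 0.00167), from 55.9 (lowest), 68 (median) and 95 (highest) CPM at day 0 to 45.2, 54.8, 50.4 and 44.2 CPM, without overlap. Elovl6, which elongates saturated fatty acids, rose by 2.37, 2.03, 2.39 and 0.73 in the order used above; its call at DC day 4 ended without uncoated M6 (adjusted p = 0.0645).

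**Figure D2:**
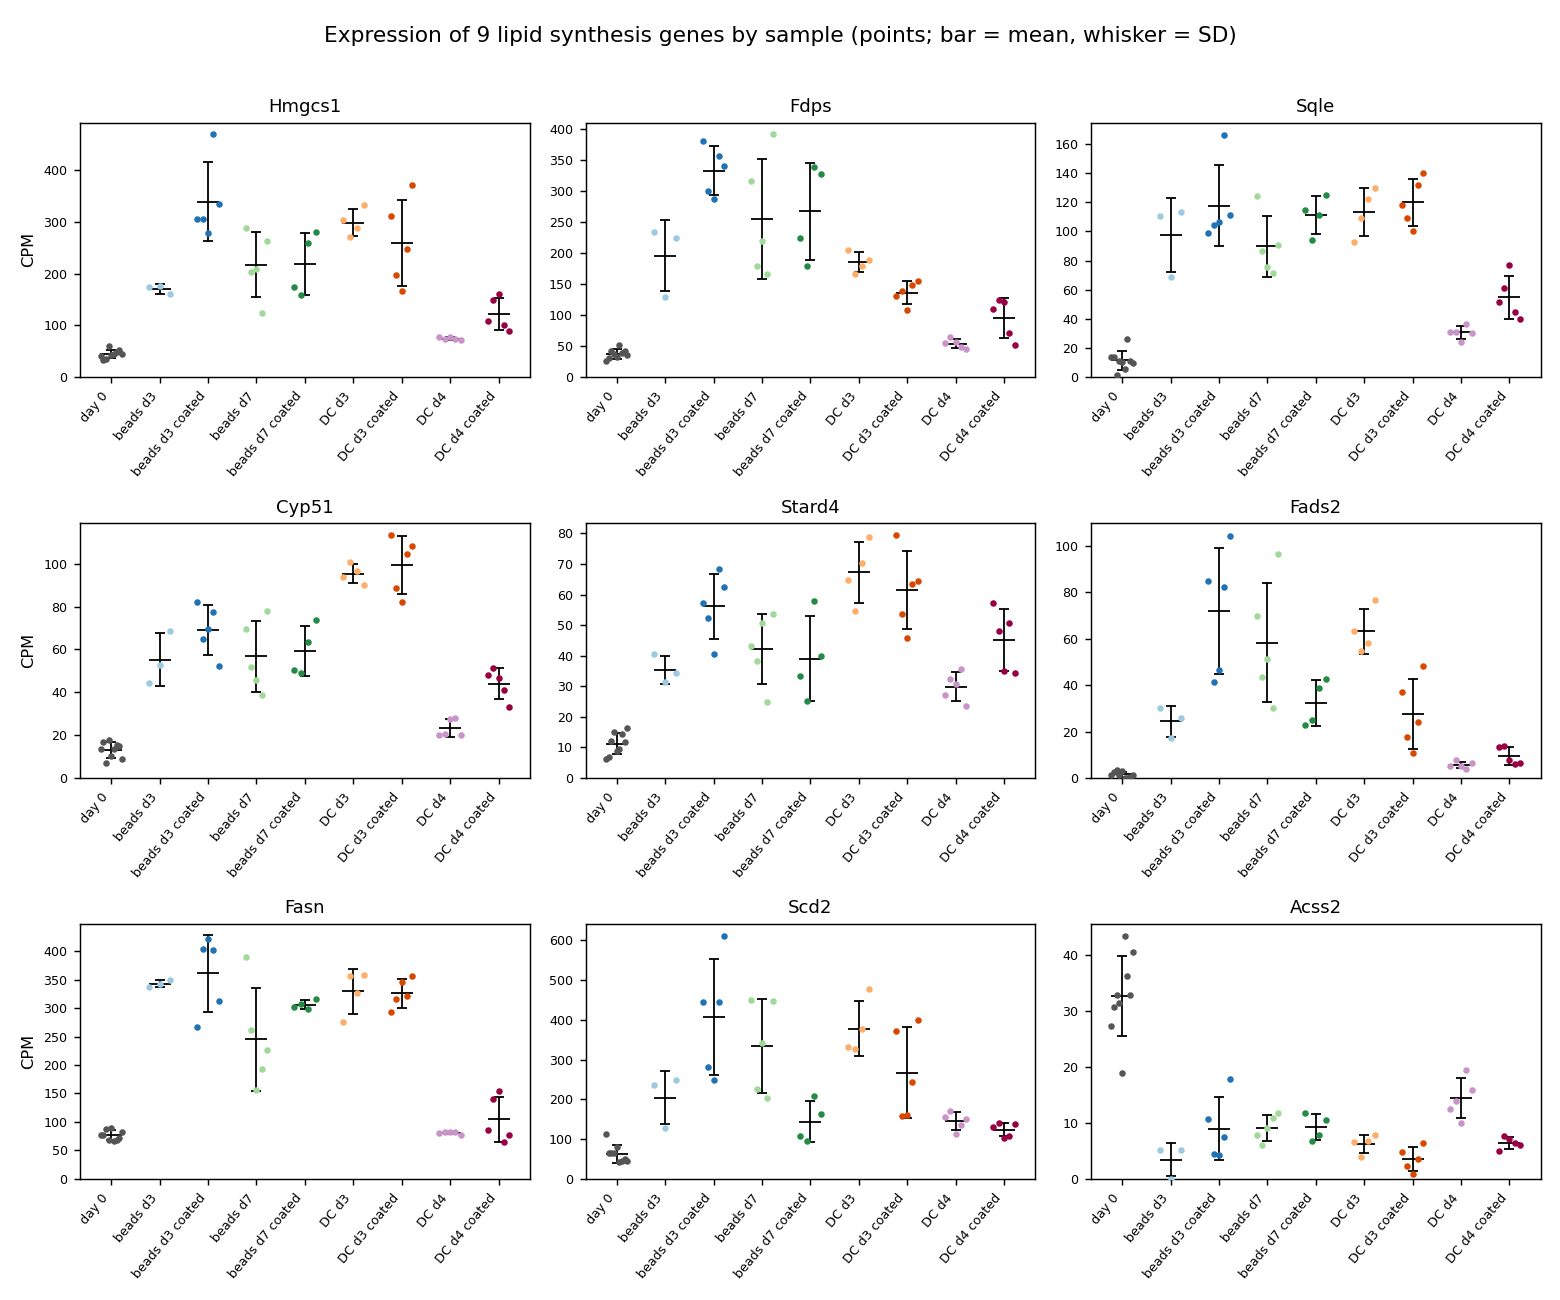
CPM of 9 members in each sample of the 9 groups, with group mean and SD. Acss2 is highest at day 0, the other genes are low there, and most are high at day 3 and lower at DC day 4.

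In DC cultures of day 4, several genes of the cholesterol route and of SREBP control were higher in coated wells. Of 29 members tested, 7 were higher on the coating (Hmgcs1, Fdps, Sqle, Cyp51, Srebf2, Scap, Stard4) and 1 lower (Acss2), against 9.75% and 9.23% of all genes tested. The log2 difference was positive for 22 of the 29, with a median of 0.14 beside -0.00 for all genes. By role, 2 of 6 mevalonate genes, 2 of 9 sterol genes, 2 of 4 regulators and 0 of 5 desaturases and elongases were higher.

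Cyp51, the demethylase of lanosterol, was at 48.3, 51.3, 46.7, 41.2 and 33.1 CPM in the coated and 20.1, 20.4, 27.5, 28.1 and 19.9 CPM in the uncoated samples M6 to M10. The groups did not overlap. Sqle was at 51.9, 60.8, 77.2, 44.4 and 39.7 CPM coated and 30.8, 31.2, 24.2, 36.7 and 30.5 CPM uncoated, again without overlap. Hmgcs1 was at 108, 149.7, 160.1, 101 and 89.3 CPM coated and 77.7, 74, 76.7, 72.8 and 70.9 CPM uncoated, and the lowest coated sample lay above the highest uncoated one. The log2 differences were 0.95 ± 0.16 (SE, adjusted p = 0.00203) for Cyp51, 0.82 ± 0.17 (SE, adjusted p = 0.00618) for Sqle and 0.70 ± 0.15 (SE, adjusted p = 0.00638) for Hmgcs1. Fdps, which makes farnesyl diphosphate, was at 109.5, 125, 121, 71.4 and 52.3 CPM coated and 55.4, 64.4, 56.7, 48.7 and 45.7 CPM uncoated, with coated M10 within the uncoated range. Its difference was 0.81 ± 0.21 (SE, adjusted p = 0.018), and the call ended without coated M7 (adjusted p = 0.0534). Acss2 was at 4.9, 7.57, 7.13, 6.41 and 5.95 CPM coated and 12.5, 13.9, 10.0, 19.5 and 15.8 CPM uncoated, without overlap, and fell by 1.19 ± 0.23 (SE, adjusted p = 0.00331).

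The calls of Hmgcs1, Sqle, Cyp51 and Acss2 held in all 16 alternatives run, with highest adjusted p of 0.0229, 0.0213, 0.00909 and 0.0162. Scap had a difference of 0.44 ± 0.13 (SE, adjusted p = 0.0258); its call ended without coated M6 (adjusted p = 0.0613) or M7 (0.0663) or uncoated M6 (0.0567) or M9 (0.0638). Stard4, at 0.60 ± 0.17 (SE, adjusted p = 0.0213), ended without coated M6 (0.07) or M7 (0.0543) or uncoated M6 (0.0594) or M10 (0.0597). Srebf2 was at 338, 356, 362, 275 and 346 CPM coated and 271, 301, 260.2, 219 and 262 CPM uncoated, so the groups overlapped, with a difference of 0.34 ± 0.11 (SE, adjusted p = 0.0435). Its call held in 6 of 16 alternatives (adjusted p from 0.00911 to 0.107) and ended without coated M6 (0.0805), M7 (0.0945), M8 (0.0741) or M10 (0.0592) or uncoated M6 (0.078), M8 (0.0524), M9 (0.107) or M10 (0.0894).

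Fasn, Scd2, Insig1 and Srebf1 were not called on the coating at DC day 4. Fasn was at 86.2, 140.5, 154, 64 and 77.4 CPM coated and 81, 82.1, 81.7, 82.5 and 76.8 CPM uncoated, a spread that was wide in coated samples, with a difference of 0.36 ± 0.21 (SE, adjusted p = 0.257). Differences were -0.25 ± 0.12 (SE, adjusted p = 0.17) for Scd2, -0.42 ± 0.24 (SE, adjusted p = 0.229) for Insig1 and -0.09 ± 0.11 (SE, adjusted p = 0.599) for Srebf1. Uncoated M8 held the most transcript of other cells, with MHC class II and DC markers summing to 1365 CPM and erythroid markers to 1190 CPM; over all samples the class II sum was 67 to 285 CPM coated and 111 to 1365 CPM uncoated. Without both M8 libraries, 6 members were higher and 1 lower, and 6 of these 7 were calls of all samples. Fdps was no longer called then (0.75, adjusted p = 0.073), nor was Srebf2 (0.32, 0.0748).

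**Figure D3:**
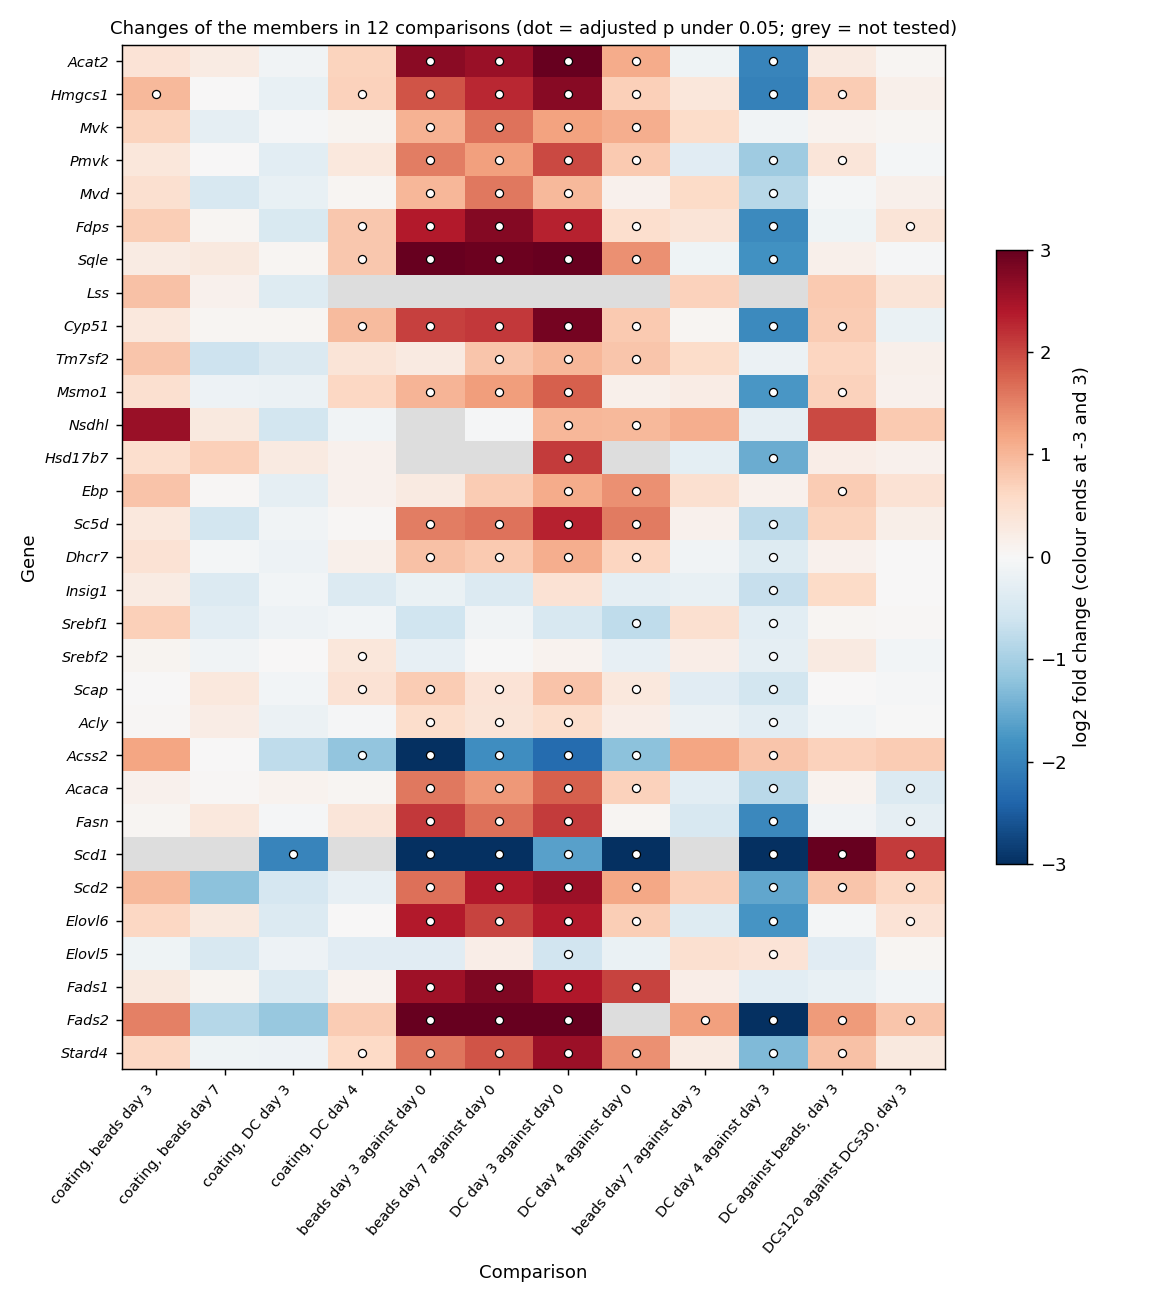
Log2 fold changes of 31 members in 12 comparisons, with a dot where the adjusted p was under 0.05 and grey where the gene was not tested; colours end at -3 and 3. Most members are red against day 0 and blue in DC day 4 against day 3, and dots are few in the coating comparisons other than DC day 4.

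In bead cultures of day 3, 29 of 30 members had a positive coating difference, with a median of 0.48 (all genes -0.00), and 1 was called higher and 0 lower, against 0.0445% and 0.0556% of all genes. At an unadjusted p under 0.05, 14 were higher and 0 lower, and DESeq2 called 4 higher and 0 lower. Here and in the comparisons below, the matching shares of all genes are not given for counts at an unadjusted p, by DESeq2 or of positive differences. Those counts are thus not to be set beside the shares printed, which are of adjusted calls by edgeR. The called member was Hmgcs1, at 306, 305, 278, 469.9 and 335 CPM in 5 coated and 175, 177 and 160 CPM in 3 uncoated samples. Every coated sample lay above every uncoated one, with a difference of 0.97 ± 0.17 (SE, adjusted p = 0.0434). The call held in 6 of 14 alternatives (adjusted p from 0.000211 to 0.421) and ended without coated M1 (0.0836), M2 (0.0599) or M5 (0.0622) or uncoated M1 (0.224), M2 (0.34) or M4 (0.421). Scd2 was at 446, 282, 249.6, 444 and 612 CPM coated and 236, 127 and 249 CPM uncoated and Srebf1 at 206, 176, 211, 242 and 258 CPM and 129, 133 and 133 CPM. The groups of neither gene overlapped, those of Scd2 by a narrow margin, and neither was called, at 0.97 ± 0.36 (SE, adjusted p = 0.404) and 0.71 ± 0.14 (SE, adjusted p = 0.0866). Scd2 stayed without a call in 13 of 14 alternatives (adjusted p down to 0.00471) and Srebf1 in 12 of 14 (down to 0.00705).

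Sqle, Fasn, Insig1 and Srebf2 had smaller coating differences at bead day 3, of 0.24 ± 0.20 (SE, adjusted p = 0.665), 0.05 ± 0.14 (SE, adjusted p = 0.905), 0.24 ± 0.35 (SE, adjusted p = 0.819) and 0.08 ± 0.11 (SE, adjusted p = 0.804). Other transcripts also moved with the coating at this day. The MHC class II and DC markers summed to 36.4 ± 7.42 CPM coated and 109.6 ± 28.1 CPM uncoated, with 2 of 4 markers tested lower on the coating. Mitochondrially encoded transcripts summed to 117 ± 44.6 CPM coated and 348 ± 176 CPM uncoated. Their part in the members' differences was not tested.

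In bead cultures of day 7, 0 of 30 members were called in either direction, against 0.425% of all genes higher and 1.41% lower. With no adjustment of p (threshold 0.05), 1 was higher and 6 were lower, and DESeq2 called 1, lower; 15 differences were positive. Hmgcs1 was at 175, 159, 259.9 and 280.3 CPM in 4 coated and 288, 203, 209, 124 and 262 CPM in 5 uncoated samples, which overlapped, with a difference of 0.00 ± 0.24 (SE, adjusted p = 0.995). Scd2 was at 109, 95.6, 208 and 162 CPM coated and 449, 226, 343, 202 and 448 CPM uncoated. Its groups overlapped and the difference was -1.22 ± 0.32 (SE, adjusted p = 0.079). The Scd2 difference was called in 4 of 15 alternatives: by DESeq2 (adjusted p = 0.0029), in 1 fit over all groups (0.00929), with the M number as a block (0.0151) and without uncoated M2 (0.0473). Differences of 0.30 ± 0.16 (SE, adjusted p = 0.291) for Sqle, 0.31 ± 0.21 (SE, adjusted p = 0.406) for Fasn, -0.40 ± 0.38 (SE, adjusted p = 0.573) for Insig1, -0.32 ± 0.14 (SE, adjusted p = 0.204) for Srebf1 and -0.10 ± 0.11 (SE, adjusted p = 0.63) for Srebf2 were not called. Fasn stayed without a call in 14 of 15 alternatives (adjusted p down to 0.0417).

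In DC cultures of day 3, 0 of 31 members were higher and 1 was lower, against 0.176% and 0.234% of all genes, and 5 differences were positive. At an unadjusted p under 0.05, 0 were higher and 8 lower, and DESeq2 called 0 higher and 2 lower. The sums of DC day 3 mix title numbers unevenly. Coated M3 is a 30 library alone and uncoated M3 a 120 library alone. In M1, M4 and M5 too, the 120 libraries gave a smaller share of the counts in coated than in uncoated sums. Scd1, Scd2, Fads2, Fdps and Elovl6 were higher with 120 than with 30, as given below. Scd1 was at 5.17, 1.57, 0.913, 3.48 and 5.34 CPM in 5 coated and 15.9, 9.78, 12.5 and 16.9 CPM in 4 uncoated samples. The groups did not overlap, and Scd1 fell by 1.98 ± 0.29 (SE, adjusted p = 0.00878). The call ended without uncoated M5 (-1.87, adjusted p = 0.0794) and with the 120 libraries alone (-1.40, adjusted p = 0.336); over the alternatives run the adjusted p was 7.75e-05 to 0.336. Hmgcs1 (-0.22 ± 0.21 SE, adjusted p = 0.704), Sqle (0.07 ± 0.11 SE, adjusted p = 0.841), Fasn (-0.03 ± 0.09 SE, adjusted p = 0.92) and Scd2 (-0.51 ± 0.31 SE, adjusted p = 0.53) were not called. Nor were Insig1 (-0.09 ± 0.17 SE, adjusted p = 0.862), Srebf1 (-0.15 ± 0.12 SE, adjusted p = 0.646) and Srebf2 (0.01 ± 0.08 SE, adjusted p = 0.977).

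Other transcripts differed between those coated and uncoated samples. All 6 mitochondrially encoded transcripts tested had a positive coating difference (median 0.87), with 0 called, and they summed to 119, 579.5, 627, 170 and 89.1 CPM coated and 212, 256, 89.7 and 90.0 CPM uncoated. Coated M2 and M3 held the highest of these sums and the lowest sums of the members, 2325 and 2227 CPM, where the other coated samples were at 2687 to 3210 CPM and the uncoated ones at 2886 to 3370 CPM. Of 3 B cell markers tested, Ighm was lower on the coating (-0.41 ± 0.07 SE, adjusted p = 0.0258). Without coated M2 and M3, Scd1 was again the 1 member called (-1.62, adjusted p = 0.0144), and Hmgcs1 was at 0.03 (adjusted p = 0.974). The part of B cell transcripts in these differences was not tested.

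Whether the coating effect itself differed between days or activators was tested as a difference of differences. Between DC day 4 and DC day 3 (120 libraries), the effect was more positive at day 4 for 6 of 31 members and less for 0, against 2.30% and 1.38% of all genes. Before adjustment, at p under 0.05, these counts were 13 and 0, and by DESeq2 6 and 0. The 6 were Fads2 (1.67 ± 0.42 SE, adjusted p = 0.0343), Fdps (1.25 ± 0.27 SE, adjusted p = 0.0196), Stard4 (0.96 ± 0.26 SE, adjusted p = 0.0432), Hmgcs1 (0.92 ± 0.26 SE, adjusted p = 0.0475), Cyp51 (0.88 ± 0.21 SE, adjusted p = 0.0239) and Scap (0.73 ± 0.18 SE, adjusted p = 0.0296). Fdps alone among them stayed called in every alternative run.

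The other 5 of these calls ended when single libraries were left out. Coated M2 and M3 of DC day 3 held the most mitochondrially encoded transcripts at that day, but coated M3 has no 120 library. Leaving out both was thus the same here as leaving out coated M2. It left 2 calls, those of Fdps and Cyp51 (adjusted p = 0.0414 for each). For Cyp51 the single libraries that ended the call were DC day 4 coated M6 (adjusted p = 0.0532) and M7 (0.0574), uncoated M6 (0.0514) and DC day 3 uncoated M4 (0.0572). For Scap they were DC day 4 coated M6 and M7, DC day 3 coated M2 and DC day 3 uncoated M1, M4 and M5 (adjusted p from 0.0547 to 0.0763). For Fads2 they were DC day 4 coated M6 and M7 and uncoated M6, M9 and M10, and DC day 3 coated M2 and M4 and uncoated M1, M4 and M5 (0.0532 to 0.0852). For Stard4 they were DC day 4 coated M6 and M7 and uncoated M6, M7, M9 and M10, and DC day 3 coated M2, M4 and M5 and uncoated M1, M4 and M5 (0.05 to 0.0992). For Hmgcs1 they were DC day 4 coated M6, M7 and M8, DC day 3 coated M1, M2 and M4 and every uncoated library of both days (0.0516 to 0.103). Sqle (0.74, adjusted p = 0.0777), Fasn (0.54, adjusted p = 0.253), Scd2 (0.25, adjusted p = 0.637), Insig1 (-0.22, adjusted p = 0.794), Srebf1 (0.14, adjusted p = 0.723) and Srebf2 (0.30, adjusted p = 0.288) did not pass.

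Between DC and beads at day 3, the coating effect was lower with DCs for 4 of 31 members and higher for 0, against 0.725% and 0.308% of all genes. At an unadjusted p under 0.05, 19 were lower and 0 higher, and by DESeq2 6 and 0. Fads2 differed by -2.65 ± 0.55 (SE, adjusted p = 0.0348), Fdps by -1.20 ± 0.20 (SE, adjusted p = 0.00768), Elovl6 by -1.04 ± 0.25 (SE, adjusted p = 0.0453) and Srebf1 by -0.89 ± 0.20 (SE, adjusted p = 0.0321). Fads2 was at 84.5, 41.1, 46.4, 82.4 and 104 CPM coated and 30.2, 17.1 and 26 CPM uncoated with beads, and at 37.1, 17.8, 11, 24 and 48 CPM coated and 63.2, 54.8, 58 and 76.6 CPM uncoated with DCs. Coated samples were thus the higher ones with beads and the lower ones with DCs, without overlap in either when DC libraries were summed. Those sums mix title numbers unevenly. In 30 libraries alone, Fads2 was at 25.42, 13.86, 10.85, 21.87 and 43.19 CPM coated and 39.44, 35.17 and 51.1 CPM uncoated, which overlapped. In 120 libraries alone it was at 54.51, 19.44, 28.81 and 50.19 CPM coated and 83.57, 54.76, 65.09 and 84.71 CPM uncoated, without overlap. The Fdps call held without each sample in turn and in 25 of 27 alternatives (adjusted p up to 0.105). It ended with the 30 libraries alone, where no member was called. That of Elovl6 ended without DC coated M2, M3 or M4, DC uncoated M3, M4 or M5, bead coated M2 or M4, or any uncoated bead library (adjusted p from 0.0504 to 0.148). That of Fads2 ended without DC coated M2 or M4, DC uncoated M1 or M5, bead coated M1, M4 or M5, or any uncoated bead library (0.051 to 0.11). That of Srebf1 ended without DC coated M2, M3 or M4, DC uncoated M4 or M5, bead coated M4 or M5, or any uncoated bead library (0.051 to 0.0976). Hmgcs1 (-1.21, adjusted p = 0.0517), Sqle (-0.18, adjusted p = 0.709), Fasn (-0.10, adjusted p = 0.789), Scd2 (-1.50, adjusted p = 0.138), Insig1 (-0.35, adjusted p = 0.673) and Srebf2 (-0.09, adjusted p = 0.728) did not pass. Without the M2 bead libraries, 1 of the 4 calls was left, that of Fdps, and without coated M2 and M3 of the DC cultures it was again Fdps alone (-1.13, adjusted p = 0.0324).

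Between bead day 7 and bead day 3, the coating effect was lower at day 7 for 5 of 30 members and higher for 0, against 2.53% and 1.51% of all genes. With no adjustment of p (threshold 0.05), 8 were lower and 0 higher, and by DESeq2 6 and 0. The 5 were Fads2 (-2.38 ± 0.54 SE, adjusted p = 0.0274), Scd2 (-2.21 ± 0.52 SE, adjusted p = 0.0343), Tm7sf2, a sterol reductase (-1.44 ± 0.36 SE, adjusted p = 0.0336), Srebf1 (-1.04 ± 0.20 SE, adjusted p = 0.0127) and Mvd (-0.94 ± 0.25 SE, adjusted p = 0.0382). The Srebf1 call held without each library in turn, and it was the 1 call left without the M2 bead libraries. Any 1 of the 3 uncoated day 3 libraries, left out, ended the other 4. So did day 7 coated M1 or M2 for each of them, with adjusted p up to 0.0783 for Fads2, 0.0846 for Scd2, 0.112 for Tm7sf2 and 0.117 for Mvd. Further such libraries were day 7 uncoated M3 and M5 (Scd2, Tm7sf2 and Mvd), day 3 coated M5 (the same genes), day 3 coated M1 and day 7 coated M5 (Scd2 and Mvd), and day 7 coated M3, day 7 uncoated M4 and day 3 coated M4 (Mvd). Hmgcs1 (-0.98, adjusted p = 0.0924), Sqle (0.05, adjusted p = 0.938), Fasn (0.25, adjusted p = 0.623), Insig1 (-0.65, adjusted p = 0.519) and Srebf2 (-0.19, adjusted p = 0.437) did not pass.

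From day 3 to day 4 of DC culture without coating, using libraries with 120 in the title, 23 of 30 members fell and 2 rose, where 30.8% of all genes fell and 30.8% rose. The median was -0.82 for the members and 0.01 for all genes. The sterol gene Dhcr7 is among the 23, but its call held in only 4 of 14 alternatives (adjusted p up to 0.139). Hmgcs1 was at 288, 271, 311 and 331 CPM in the 4 libraries of day 3 and 77.7, 74, 76.7, 72.8 and 70.9 CPM in the 5 of day 4. The days did not overlap, and Hmgcs1 fell by 2.03 ± 0.10 (SE, adjusted p = 2.69e-10). Fads2 fell by 3.63 ± 0.20 (SE, adjusted p = 1.08e-09), Scd1 by 3.58 ± 0.38 (SE, adjusted p = 7.95e-07), Fasn by 1.93 ± 0.11 (SE, adjusted p = 1.15e-09), Sqle by 1.82 ± 0.14 (SE, adjusted p = 4.36e-08) and Scd2 by 1.57 ± 0.14 (SE, adjusted p = 1.16e-07). The regulators fell less: Insig1 by 0.70 ± 0.19 (SE, adjusted p = 0.00554), Srebf1 by 0.31 ± 0.13 (SE, adjusted p = 0.0443) and Srebf2 by 0.28 ± 0.10 (SE, adjusted p = 0.0294). The calls of Srebf1 and Srebf2 ended without each of several libraries: Srebf1 without day 4 M6 (adjusted p = 0.0732), M7 (0.097), M9 (0.106) or M10 (0.0822) or day 3 M4 (0.111) or M5 (0.157), and Srebf2 without day 4 M6 (0.0519), M9 (0.077) or M10 (0.0554) or day 3 M3 (0.0633) or M5 (0.0807).

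Acss2 and Elovl5 went the other way over that day. Acss2 rose by 0.83 ± 0.25 (SE, adjusted p = 0.00853), from 10.3, 3.91, 7.51 and 8.47 CPM to 12.5, 13.9, 10.0, 19.5 and 15.8 CPM. Elovl5 rose by 0.41 ± 0.13 (SE, adjusted p = 0.0136), a call that ended without day 3 M4 (adjusted p = 0.055). Day 3 and day 4 share no M numbers, so the days also differ in M numbers, and time and these sets of samples cannot be told apart. Markers of other cells and of RNA quality moved over that day too. Of 7 CD8+ T cell markers, 6 were called higher at day 4, as were 2 of 2 B cell markers and 1 of 1 macrophage marker tested. Over all uncoated samples, the B cell sum was 633.5 ± 37.5 CPM at day 3 and 2218 ± 203 CPM at day 4, and the CD8+ T cell sum 6526 ± 594 CPM and 12680 ± 1607 CPM. All 4 class II and DC markers, all 4 erythroid markers and all 5 mitochondrially encoded transcripts tested had positive differences (medians 1.81, 1.53 and 1.39), with 0 called. Their part in the members' differences was not tested.

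Between bead day 3 and bead day 7 without coating, 1 of 30 members rose and 0 fell, against 12.1% and 11.0% of all genes. At an unadjusted p under 0.05, 4 rose and 0 fell, and by DESeq2 1 and 0. Fads2 was at 30.2, 17.1 and 26 CPM at day 3 and 69.6, 43.5, 51.4, 30.1 and 96.3 CPM at day 7. The highest samples were of day 7, but day 3 M1 lay above day 7 M4, and the difference was 1.23 ± 0.37 (SE, adjusted p = 0.0375). The call ended without day 7 M1 (adjusted p = 0.0644) or M3 (0.0623) or day 3 M1 (0.0836), M2 (0.13) or M4 (0.119). Hmgcs1 (0.35, adjusted p = 0.294), Sqle (-0.13, adjusted p = 0.701), Fasn (-0.48, adjusted p = 0.177), Scd2 (0.71, adjusted p = 0.148), Insig1 (-0.23, adjusted p = 0.725), Srebf1 (0.47, adjusted p = 0.0601) and Srebf2 (0.19, adjusted p = 0.318) were not called. Uncoated day 7 samples varied widely, with mevalonate sums of 476 to 909.9 CPM and erythroid sums of 7.13 to 851 CPM; without uncoated M3 and M4, 4 members rose.

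Between activators at day 3 without coating, 9 of 31 members were higher with DCs and 0 lower, against 11.1% and 13.8% of all genes. Before adjustment, at p under 0.05, 11 were higher and 1 lower, and DESeq2 called 7 and 0. Fads2 was at 63.2, 54.8, 58 and 76.6 CPM in 4 DC and 30.2, 17.1 and 26 CPM in 3 bead samples, without overlap, a difference of 1.27 ± 0.19 (SE, adjusted p = 0.000191). Stard4 was at 64.9, 54.8, 70.5 and 78.7 CPM with DCs and 40.5, 31.4 and 34.3 CPM with beads, also apart, a difference of 0.87 ± 0.16 (SE, adjusted p = 0.000995). Scd2 was at 332, 327, 377 and 478 CPM with DCs and 236, 127 and 249 CPM with beads, a difference of 0.83 ± 0.22 (SE, adjusted p = 0.0306); its call ended without DC M3 (adjusted p = 0.0617) or M4 (0.0571). Hmgcs1 was higher by 0.76 ± 0.11 (SE, adjusted p = 9.4e-05), while Sqle (0.15, adjusted p = 0.546), Fasn (-0.11, adjusted p = 0.508), Insig1 (0.57, adjusted p = 0.17), Srebf1 (0.06, adjusted p = 0.79) and Srebf2 (0.27, adjusted p = 0.0596) were not called. The remaining 5 called were Scd1, Cyp51, Ebp, Msmo1 and Pmvk, with log2 differences from 0.37 to 3.54; those of Pmvk, Msmo1 and Ebp ended as calls in 10 to 12 of 16 alternatives. With DC libraries of the number 30 alone, the Fads2, Stard4 and Scd2 differences were 0.68, 0.46 and 0.20 (adjusted p = 0.0536, 0.108 and 0.726), so the calls ended without the 120 libraries. Among markers, 4 of 7 of CD8+ T cells were higher with DCs and 1 lower, 1 of 4 of class II and DCs was higher, and 2 of 2 of B cells were lower. The 4 erythroid markers had positive differences (median 1.81) and the 6 mitochondrially encoded transcripts negative ones (median -1.16), with 0 called in either set. Their part in the members' differences was not tested.

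The number in the DC titles of day 3 was compared in a fit of all single libraries, with M number and coating as covariates. Ratios are of the 7 pairs of libraries that share M number and coating. M3 has no such pair but is in the fit. With 120, 5 of 31 members were higher and 2 lower than with 30, against 6.05% and 6.15% of all genes. The lower members were thus near the share of all genes. Scd1 was higher with 120 in 7 of 7 pairs, with ratios from 1.34 to 7.98 (median 4.39) and a log2 difference of 2.09 ± 0.25 (SE, adjusted p = 5.29e-06). Fads2 was higher in 7 of 7 pairs (1.16 to 2.14; 0.83 ± 0.13 SE, adjusted p = 0.000169) and Scd2 in 6 of 7 (0.964 to 2.4; 0.63 ± 0.14 SE, adjusted p = 0.00791). Fdps was higher in 7 of 7 pairs (0.38 ± 0.10 SE, adjusted p = 0.011) and Elovl6 in 6 of 7 (0.41 ± 0.12 SE, adjusted p = 0.0372). The Fads2 and Scd2 calls ended without the M number as a block (adjusted p = 0.0638 and 0.249) and in coated libraries alone, where the differences were 0.62 (adjusted p = 0.188) and 0.29 (adjusted p = 0.388); in uncoated libraries alone both passed, at 0.92 and 0.99. That of Fdps ended in 3 of 12 alternatives, without M5 (adjusted p = 0.079), in coated libraries alone (0.446) and in 1 fit over all groups (0.0671). That of Elovl6 ended in 9 of 12, among them without M1, M2, M3, M4 or M5 (adjusted p = 0.135, 0.0723, 0.0664, 0.0991 and 0.0578). Fasn was lower with 120 in 7 of 7 pairs (ratios 0.669 to 0.997; -0.27 ± 0.08 SE, adjusted p = 0.0256), and Acaca, which makes malonyl-CoA, in 6 of 7 (-0.40 ± 0.13 SE, adjusted p = 0.0449). The Acaca call ended without M1, M2, M3, M4 or M5 (adjusted p = 0.126, 0.0627, 0.0873, 0.066 and 0.219), and that of Fasn without M1 (0.102), M2 (0.0821) or M5 (0.281). Hmgcs1 (0.15, adjusted p = 0.449), Sqle (-0.04, adjusted p = 0.818), Insig1 (0.00, adjusted p = 0.999), Srebf1 (0.04, adjusted p = 0.806) and Srebf2 (-0.08, adjusted p = 0.472) were not called. All 6 mitochondrially encoded transcripts tested were at negative differences (median -0.57, 1 called) and all 4 class II and DC markers at positive ones (median 1.24, 0 called), and their part was not tested.

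**Figure D4:**
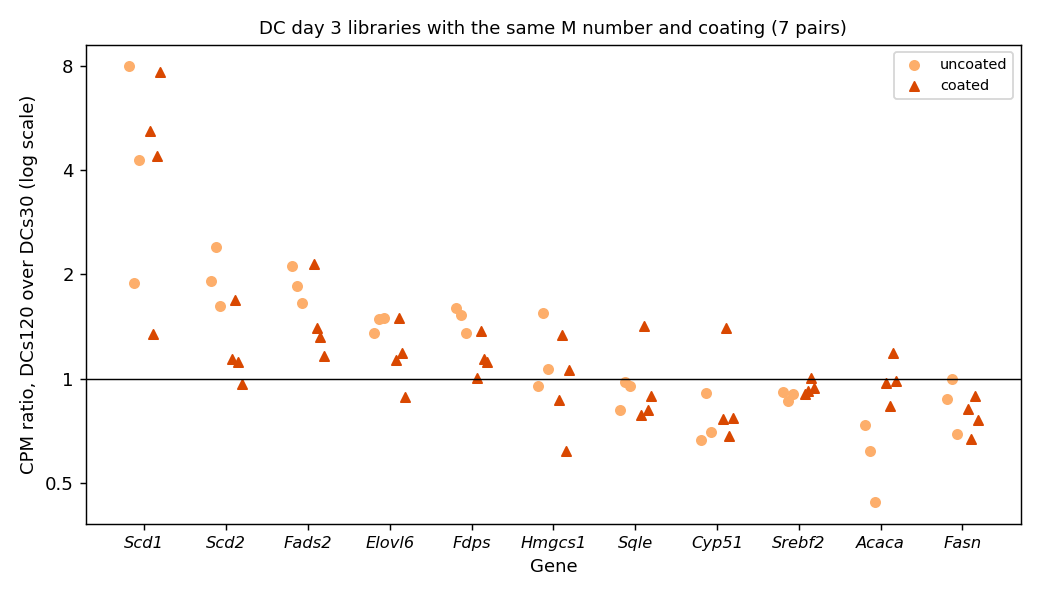
Ratio of CPM in the 120 library to CPM in the 30 library of the same M number and coating, for 11 members and 7 pairs of DC day 3. Scd1 and Fads2 lie above 1 in all 7 pairs, and Fasn lies below 1 in all 7.

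Neighbouring pathways were read from lists of genes outside the 33. Of 18 other genes of sterol and isoprenoid synthesis and SREBP control, 9 of 13 tested rose and 1 fell at bead day 3 against day 0, 11 and 1 of 14 at bead day 7, 11 and 1 of 14 at DC day 3 and 7 and 1 of 13 at DC day 4. Of all genes tested, 30.2%, 30.5%, 37.0% and 26.4% rose in those comparisons. On the coating at DC day 4, 2 of 14 were higher and 0 lower, where 9.75% and 9.23% of all genes were. Erg28, a scaffold of sterol demethylation, was at 104 ± 8.97 CPM on the coating and 71.9 ± 8.07 CPM without it, a difference of 0.52 ± 0.11 (SE, adjusted p = 0.00555). Tmem97 was at 50.3 ± 13.9 CPM on the coating and 34 ± 4.25 CPM without it, a difference of 0.56 ± 0.18 (SE, adjusted p = 0.0424).

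Of the genes of sterol efflux, the sterol sensor LXR and storage, 8 of 11 tested fell and 2 rose at bead day 3 against day 0, where 35.0% of all genes fell. The counts were 5 and 2 of 10 at bead day 7 (31.0% of all genes fell; 5 of the 10 differences were positive), 7 and 2 of 10 at DC day 3 (38.1%) and 7 and 0 of 10 at DC day 4 (29.2%). Several of these genes are also active in macrophages, and the sum of 7 macrophage and monocyte markers was 615 ± 263 CPM at day 0 and at most 24.9 CPM as a group mean later; its part was not tested. Abcg1, an exporter of cholesterol, fell by 5.63 on the log2 scale at DC day 3 against day 0 and rose by 3.85 ± 0.27 (SE, adjusted p = 1.09e-08) from DC day 3 to day 4. On the coating, 1 of 10 was higher and 3 lower at DC day 4 (9.75% and 9.23% of all genes). Npc2, which hands cholesterol out of lysosomes, was at 266 ± 54.7 CPM on the coating and 449 ± 56.8 CPM without it, a difference of -0.76 ± 0.14 (SE, adjusted p = 0.00275). Mylip, a ubiquitin ligase and target of LXR, was at 3.2 ± 1.83 CPM on the coating and 10.6 ± 1.33 CPM without it, a difference of -1.81 ± 0.33 (SE, adjusted p = 0.003). At bead day 7, 0 of 9 were higher and Abcg1 was lower, at 4.57 ± 3.04 CPM on the coating and 27.8 ± 12.5 CPM without it (-2.58 ± 0.46 SE, adjusted p = 0.0254). Of 16 fatty acid oxidation genes, 2 of 15 tested were higher on the coating at DC day 4, a share near that of all genes (9.75%): Etfb (0.63 ± 0.15 SE, adjusted p = 0.00909) and Etfa (0.44 ± 0.13 SE, adjusted p = 0.0314), both electron carriers of that pathway.

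The authors' deposited table holds their own fold changes for the 4 coating comparisons. In the authors' deposited table, 7 members were higher and 1 lower on the coating at DC day 4, and 7 of these were also called here. The authors' deposited table called 0 members at bead day 3, 2 lower at bead day 7, Scd2 (-1.23, adjusted p = 0.00593) and Scd1 (-4.58, adjusted p = 0.00681), and 0 at DC day 3; Scd1 had too few counts to be tested here at bead day 7. The direction in the authors' deposited table and here was the same for 30 of 30 members tested at bead day 3, 27 of 30 at bead day 7, 31 of 31 at DC day 3 and 28 of 29 at DC day 4.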

How the data were processed

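The deposited table holds whole-number counts of 14626 genes in 52 libraries, not normalized, from 3′ end reads. The submitters' processing notes list bcl2fastq, cutadapt, STAR 2.4.2a, HTSeq, DESeq2 and build mm10; strand use and collapsing of duplicate molecules are not given in the sources used here, so counting error is a lower limit. The deposited table also holds log2 fold changes and adjusted p-values of the authors, printed where named, and 104 per-sample columns that were not used.

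DC day 3 libraries were summed per M number and coating, giving 45 samples. The 30 and 120 libraries have unequal shares in these DC sums. Each comparison was fitted on its own groups with edgeR 4.0.16 (R 4.3.3; robust quasi-likelihood F-test, two-sided) after filterByExpr (minimum count 10, minimum total 15) and TMM scaling, and p-values were adjusted by Benjamini-Hochberg across every gene tested. CPM use TMM factors over all 45 samples; DC day 3 single libraries use factors over all 52. The test was first checked on simulated counts. DESeq2 1.42.0, no filter, DESeq2 size factors, 1 fit over all groups, the M number as a block and leaving out samples were tried. None of 142 pairs of libraries was identical.

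Samples with the same M number deviated together in every pair at DC day 4 (correlations 0.13 to 0.34 over 5 pairs of coated and uncoated samples) and between bead day 7 and day 3 without coating (0.14 to 0.27 over 3 pairs); in no other comparison did they do so over 3 or more pairs.

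The members, gene lists and tests were chosen with earlier results of these data known. Members named in full are up to 4 called in each direction with the smallest p on the coating and up to 3 with the largest fold change and at least 20 CPM elsewhere, plus Hmgcs1, Sqle, Fasn, Scd2, Insig1, Srebf1 and Srebf2 throughout; other names were added after their values were seen.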

Additional observations from a re-analysis of the deposited data

Results flagged for a closer look

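Of 255 groups of 4 to 10 samples tested, 15 held a sample of a member that lay apart from its group by Dixon's test, where 12.8 would be flagged by chance at 1 in 20. The high samples were Sqle at 166.4 CPM and Lss at 14.0 CPM, both in coated bead day 3 M4, Sqle at 26.3 CPM and Nsdhl at 32.6 CPM in day 0 M7 and coated bead day 7 M3, Hsd17b7 at 21.1 CPM in coated DC day 3 M5, and Idi1 at 0.23 CPM in day 0 M10, where the others were listed at 0. The low samples were Mvk (29.3 CPM), Srebf2 (275.4 CPM) and Elovl6 (8.69 CPM) in coated DC day 4 M9, Scap at 72.8 CPM in uncoated DC day 4 M9, and Fasn at 76.8 CPM in uncoated DC day 4 M10. In coated bead day 7 samples, Mvk was low in M2 (38.6 CPM) and Srebf2 low in M3 (265.0 CPM). Ebp was at 50.7 CPM in coated bead day 3 M3, and Elovl6 was listed at 0 in day 0 M4.

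Coating effects that differed by edgeR's quasi-likelihood test of the difference were flagged as well. From DC day 3 to DC day 4 the effect rose on the log2 scale by 0.92 for Hmgcs1, 1.25 for Fdps, 0.88 for Cyp51, 0.73 for Scap, 1.67 for Fads2 and 0.96 for Stard4. From beads to DCs at day 3 it changed by -1.20 for Fdps, -0.89 for Srebf1, -1.04 for Elovl6 and -2.65 for Fads2. From bead day 3 to bead day 7 it changed by -0.94 for Mvd, -1.44 for Tm7sf2, -1.04 for Srebf1, -2.21 for Scd2 and -2.38 for Fads2. Errors, adjusted p and the libraries on which each call rests are given with the comparisons.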

How the results depend on the processing

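Of the members called in a comparison, Nsdhl was the 1 that changed direction in an alternative: against day 0 at DC day 3 its log2 change was 0.99, but -0.10 with the 30 libraries alone and -0.19 with the title number as covariate. For this and the other changes given here, the cause was not tested. Leaving out 1 sample at a time, or between title numbers 1 M number with all its libraries, moved the count of called members from 1 to between 0 and 1 for the coating at bead day 3, from 0 to between 0 and 2 at bead day 7, from 1 to between 0 and 2 at DC day 3 and from 8 to between 4 and 10 at DC day 4. Such counts ran from 0 to 3 (1 with all samples) between bead days, from 3 to 5 (7) between title numbers, from 1 to 9 (6) for the coating effect between DC days, from 1 to 10 (4) between activators and from 1 to 6 (5) between bead days.

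Against day 0 at bead day 3, 6 members were lower with the M number as a replicate block and 2 without it. With that block, 6 members were called for the coating at bead day 3, 2 at bead day 7 and 3 at DC day 3, and 10 (activators) and 3 (bead days) for differences of the coating effect; without a replicate block 2 were called between title numbers. At DC day 4, where M numbers pair the samples, the block gave 10 calls on the coating, 9 higher and 1 lower. No paired analysis was possible between DC day 4 and day 3 because these share no M numbers.

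DESeq2 called 4, 1 and 2 members for the coating at bead day 3, bead day 7 and DC day 3. A fit over all groups called 0 at bead day 3, 2 at bead day 7, 3 between bead days, 5 between activators, 3 between title numbers, and 3 (DC days) and 8 (bead days) for differences of the coating effect. With 120 libraries alone, 0 were called for the coating at DC day 3 and 1 for its difference from beads; with 30 alone, 0, 0 and, between activators, 3; with the title number as covariate, 3 between activators. Without the filter, 0 were called between bead days, and with coated libraries alone 0 between title numbers. In alternatives chosen after seeing the data, leaving out the bead day 3 libraries of M2 left 0 calls for the coating at that day, 0 between bead days and 1 in each difference of the coating effect that uses that day. Leaving out uncoated bead day 7 M3 and M4 gave 4 calls between bead days and 3 for the coating effect. Leaving out coated DC day 3 M2 and M3 left 2 calls for the coating effect between DC days and 1 between activators, and turned Hmgcs1 and Insig1 on the coating at DC day 3 to 0.03 and 0.07. Between DC days this left out M2 alone, since coated M3 has no 120 library.

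The other reversals were of differences near 0 that were not called. With the block, Hmgcs1 on the coating at bead day 7 went from 0.00 to -0.16, Insig1 at DC day 3 from -0.09 to 0.05, Srebf2 at DC day 3 against day 0 from 0.11 to -0.09, Insig1 and Srebf2 at DC day 4 against day 0 from -0.26 and -0.25 to 0.21 and 0.14, and Sqle between activators from 0.15 to -0.13. With 30 libraries alone, Insig1, Srebf2 and Scd2 on the coating at DC day 3 were at 0.10, -0.02 and 0.04, and Srebf1 between activators at -0.02; with the covariate Srebf1 was at -0.01 and Fasn at 0.00. Without M2, Insig1 at bead day 3 against day 0 was at 0.06 and Sqle between activators at 0.00. Without uncoated M3 and M4 of bead day 7, Hmgcs1 on the coating was at -0.22, Srebf1 and Srebf2 against day 0 at 0.07 and 0.08, Sqle between bead days at 0.03 and its coating effect between bead days at -0.11; without the filter Srebf2 was at 0.04. Between title numbers, Insig1 was at 0.00 without the filter and by DESeq2, -0.02 over all groups, -0.01 without the block and -0.19 in coated libraries alone, where Hmgcs1 and Srebf1 were at -0.03 and -0.09.

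The same steps gave ranges that cross 0 for Hmgcs1 on the coating at bead day 7 (-0.15 to 0.13) and for Sqle (-0.02 to 0.14), Insig1 (-0.23 to 0.02), Srebf2 (-0.03 to 0.04) and Fasn (-0.11 to 0.02) at DC day 3. The same held for Insig1 at bead day 3 (-0.66 to 0.06) and Srebf2 at bead day 7 (-0.08 to 0.03) against day 0, Insig1 between bead days (-0.49 to 0.28), and Sqle (0.00 to 0.27) and Srebf1 (-0.04 to 0.12) between activators. It held for Sqle (-0.12 to 0.05), Insig1 (-0.12 to 0.10) and Srebf1 (-0.03 to 0.14) between title numbers, and for the coating effect of Insig1 between DC days (-0.45 to 0.10) and Sqle between bead days (-0.07 to 0.21). The shallowest group was that of uncoated bead cells of day 3, with 3 samples of 630736 to 1617410 counts, so low counts are measured least precisely there; the part of depth in the counts of calls was not tested.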
